A study of Mus musculus with 9 samples.

Results

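The mouse uterus held 2512 stretches of transcribed sequence that lay outside every transcript of the annotation the submitters used. They were taken from transcripts that Cufflinks had assembled from the reads in each of 9 libraries. An assembled transcript was kept if it had at least 1 FPKM (fragments per kilobase of exon, scaled to the mapped fragments of the library), at least 300 exonic bases and no overlap, on either strand, with an annotated transcript. Of 114354 assembled transcripts, 21066 had no such overlap and 19366 of these passed both limits. Merging overlapping spans gave 4236 loci. The 2512 loci described here were found in 2 or more libraries, and 1724 more were found in 1 library only. The loci were chosen by these measured values (FPKM, exon length and the number of libraries), which therefore describe them and carry no test.

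The libraries came from whole uteri of immature C57BL/6 female mice, 3 libraries per group. All mice had received a single dose of 1 mg progesterone and β-estradiol at 10 mg/kg/day over 3 days. Each uterine horn then received 50 µl of medium. The control group got embryo culture medium in which no embryo had grown. The competent group got medium pooled from 9 developmentally competent human embryos, and the arrested group got medium pooled from 18 arresting embryos. Within a group the libraries therefore shared 1 pool of medium. The protocol gives the mice as 25 days old and the design text also mentions 21 days. Whether each library stands for a different animal is not stated in the labels, so p-values measure the spread between these libraries, which may be technical. Because the tissue was bulk, fewer cells of a type and less RNA per cell cannot be told apart.

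An assembler builds transcripts from aligned reads without needing a gene model, so it also reports transcription that an annotation lacks. Such transcripts can be long non-coding RNAs, missing genes, starts and ends of known genes that run beyond their models, or reads placed on processed copies of abundant mRNAs. Spliced transcripts are the easiest to interpret, because an intron with GT at its start and AG at its end also fixes the strand. A single-exon stretch assembled from a library that does not mark strand has no direction of its own.

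Sequences at the ends of a few loci show what kinds of feature they were. Coordinates are on NCBIM37 (mm9) throughout. The locus of Hand2os1, a long non-coding RNA transcribed away from the transcription factor gene Hand2, ended 98 bases before the Hand2 start. The stretch chr8:59799582-59799779 on the plus strand covers the last 100 bases of the locus in lower case, which is its 5′ end, and the bases between it and Hand2 in capitals. It is shown because Hand2os1 is described against Hand2 below, and it was chosen after its values were seen.
Hand2os1 to Hand2: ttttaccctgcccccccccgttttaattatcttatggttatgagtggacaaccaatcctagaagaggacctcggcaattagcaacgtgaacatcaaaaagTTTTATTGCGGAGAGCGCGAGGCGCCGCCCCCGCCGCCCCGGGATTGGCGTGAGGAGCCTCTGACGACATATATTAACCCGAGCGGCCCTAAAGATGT

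The spliced loci are represented by 1 intron each of Snhg8, a host gene of small nucleolar RNA, and of the locus with the most exons, which lay 6286 bases upstream of the mucin gene Muc16. Each line gives 20 exon bases and 20 intron bases on the minus strand, with the terminal pair of the intron in capitals. The Snhg8 junctions were at chr3:123211010-123211049 and chr3:123210761-123210800, and those near Muc16 at chr9:18341887-18341926 and chr9:18340038-18340077.
Snhg8 donor: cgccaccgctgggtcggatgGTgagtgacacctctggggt
Snhg8 acceptor: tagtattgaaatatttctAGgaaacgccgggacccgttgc
Muc16-side donor: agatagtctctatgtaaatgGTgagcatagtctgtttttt
Muc16-side acceptor: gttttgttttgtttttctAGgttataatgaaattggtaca

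The Malat1 locus is a nuclear non-coding RNA missing from the transcripts the files listed. Its assembled end is shown at chr19:5795682-5795781, minus strand, with the 40 bases past that end in capitals. The letters AATAAA, the usual polyadenylation signal, began at base 11 past the assembled end.
Malat1 end: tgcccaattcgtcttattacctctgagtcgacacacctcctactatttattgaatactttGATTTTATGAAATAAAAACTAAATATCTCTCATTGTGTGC

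A locus on chromosome 3, chr3:119412431-119412790, matched an annotated transcript of the ribosomal protein gene Rps20 over 358 bases with 1 difference. Counted from 1 at the start of the aligned stretch, that difference was G314A, the base of the annotated transcript first and that of the locus last. Both windows are shown because fragments that miss this base match the gene and the copy equally well, and the differing base is in capitals.
locus window: atcagtattgagccAggagttgaggttga
Rps20 window: atcagtattgagccGggagttgaggttga

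Finally, the first 200 bases are shown for 2 loci that passed the group test described below, both on the plus strand. The first, at chr6:125374618-125374817, lay between Plekhg6 and Cd9, a tetraspanin gene. Its capitals mark bases in 22-base windows that occur over 100 times in the genome, counted as exact matches on both strands. Of the 854 windows in this locus, 183 (21.4%) were that common, and the commonest occurred 45534 times. The second, at chr2:118380261-118380460, lay 4837 bases upstream of Bmf, a pro-apoptotic gene of the Bcl-2 family. No window in the bases shown was that common, but over the whole locus 34.9% of 849 windows were, and the commonest occurred 6660.0 times. In the other 4 loci that passed the test the share was 0 to 2.88%. Short fragments from such stretches match many places in the genome.
Plekhg6 to Cd9: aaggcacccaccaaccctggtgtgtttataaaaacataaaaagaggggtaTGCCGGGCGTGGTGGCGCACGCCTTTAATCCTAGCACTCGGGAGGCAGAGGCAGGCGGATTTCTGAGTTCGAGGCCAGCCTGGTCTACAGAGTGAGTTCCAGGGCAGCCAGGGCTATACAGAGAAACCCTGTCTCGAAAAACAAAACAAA
upstream of Bmf: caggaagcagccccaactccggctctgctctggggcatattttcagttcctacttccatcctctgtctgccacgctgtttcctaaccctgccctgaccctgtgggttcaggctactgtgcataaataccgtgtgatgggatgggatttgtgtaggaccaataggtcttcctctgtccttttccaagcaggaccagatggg

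Most loci were short, unspliced and weakly covered. The median span was 1320 bases (quartiles 847 and 2553) and the longest transcript of a locus had a median of 963 exonic bases. Of the 2512 loci, 2148 had 1 exon and 364 were spliced. Of the spliced loci, 202 had 2 exons at most and 87 had 3. The median mean level was 0.825 FPKM, with quartiles of 0.484 and 1.53, and 62 loci reached a mean of 10 FPKM. Levels of a locus are the summed FPKM times exon length of its transcripts, divided by the exonic bases of the locus. Just inside the FPKM limit, the loci at chr2:157378369-157380253 and chr15:102022254-102023417 had 1.003 and 1.011 FPKM in the second highest library. Just outside it, chr15:77227818-77228824 and chr17:81783135-81784898 had 0.979 and 0.949 FPKM. At the length limit, chr2:173871655-173871962 and chr7:88672919-88673568 had 300 exonic bases in the second longest library, against 299 bases at chr9:54672341-54672869 and 298 bases at chr6:47763780-47764387.

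The share of spliced loci was higher among loci found in more libraries. Of the 686 loci found in 2 libraries, 54 were spliced (7.87%), and of the 320 loci found in all 9 libraries, 94 were spliced (29.4%). Between these ends the share was lowest in 3 libraries, 10.3%, and highest in 8 libraries, 22.7%. Single-exon loci were still the majority at every number of libraries. A locus counted as spliced if a passing transcript of any library had an intron. Loci in more libraries had more chances to count as spliced, so the definition itself can raise their share.

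**Figure D1:**
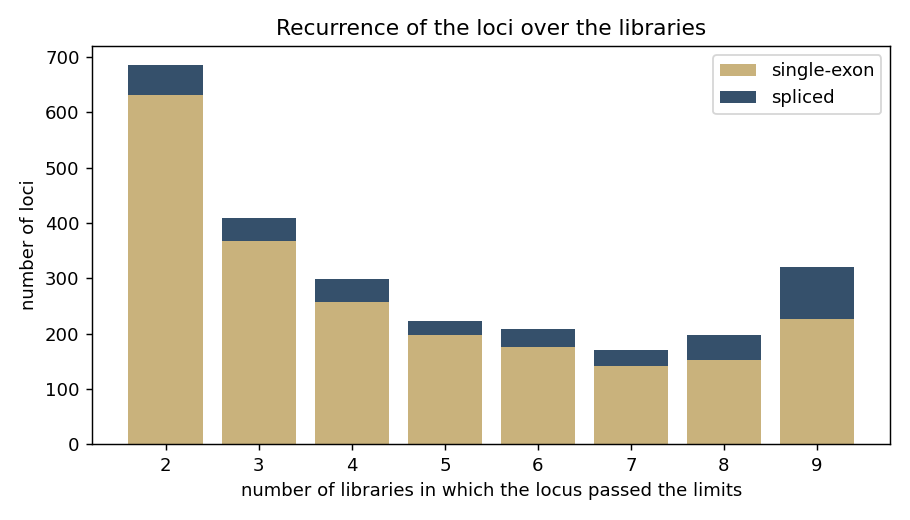
Number of loci (y axis) by the number of libraries in which they passed the limits (x axis), single-exon loci in tan and spliced loci in dark blue. The 686 loci in 2 libraries form the tallest bar, and 94 of the 320 loci in all 9 libraries were spliced.

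Most introns of the loci began with GT and ended with AG. Of 1074 distinct introns, 1037 were of this kind (96.6%), 32 were GC-AG (2.98%) and 5 were AT-AC (0.466%). In protein-coding transcripts GC-AG made up 0.768% and AT-AC 0.103%. Among the 630 introns found in 2 or more libraries the GT-AG share was 98.6%, beside 98.2% of 114456 introns of protein-coding transcripts. The median intron had 1542 bases, beside 1270.0 bases in protein-coding transcripts. These terminal bases also set the strand of a spliced transcript during assembly, so they are not independent of it. No intron of the loci had other terminal bases, and whether such introns could have been assembled was not tested.

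The ends and reading frames of the loci differed from those of coding transcripts. AATAAA or ATTAAA was in the last 50 bases of the representative transcript in 11.5% of spliced loci. The same motifs on the same strand were in 69.2% of protein-coding and 53.7% of lincRNA transcripts of the files. The longest ATG-to-stop frame had a median of 63.5 codons in spliced loci, 66.5 codons in 108 lincRNA transcripts and 395 codons in 15696 protein-coding transcripts. A frame of at least 100 codons was present in 19.8% of spliced loci, 14.8% of lincRNA and 91.2% of protein-coding transcripts. Spliced loci had a median GC share of 48.2%, close to the 47.9% of lincRNA transcripts, and single-exon loci had 44.9%. Annotated ends come from gene models and assembled ends from read coverage, which bears on the motif shares.

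The loci crowded around annotated genes, above all past their 3′ ends. Within 1 kb past the 3′ end of the nearest gene lay 801 loci, 31.9% of all, in 1.67% of the intergenic sequence, which is 31.3 loci per Mb. Within 1 kb before a gene's 5′ start lay 394 loci, or 16.04 per Mb. Between 1 and 5 kb the densities were 5.63 per Mb on the 3′ side and 2.23 per Mb on the 5′ side. Beyond 50 kb they were 0.198 and 0.212 per Mb, with 70 loci on either side. Spliced loci were distributed otherwise, with 23 of the 801 loci nearest a 3′ end and 70 of the 394 nearest a 5′ start.

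**Figure D2:**
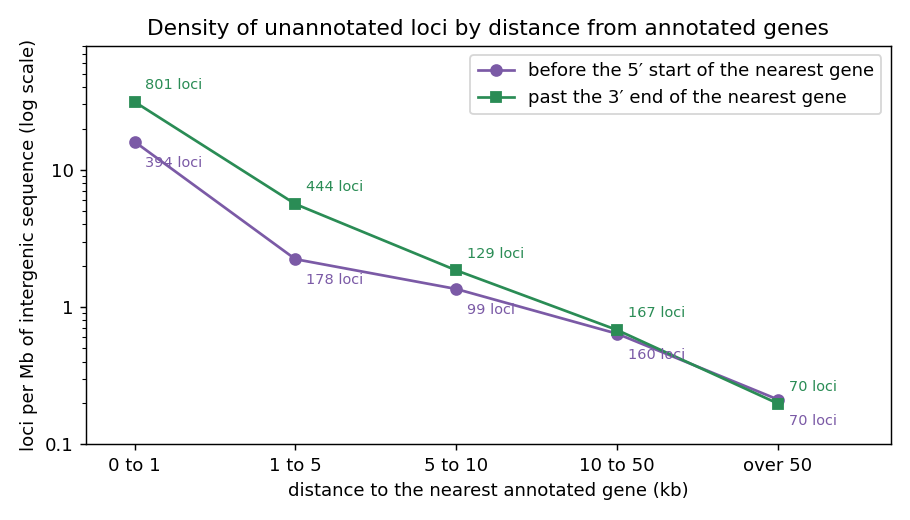
Loci per Mb of intergenic sequence (y axis, log scale) by distance to the nearest annotated gene in kb (x axis), on its 3′ side in green and its 5′ side in purple. The 3′ side is the denser within 10 kb, and both sides fall to about 0.2 loci per Mb beyond 50 kb.

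Each locus was placed in 1 of 5 classes, in order of precedence. A later annotation named 176 loci, and 116 others were copies of an annotated transcript, with at least 90% identity over at least 50% of the locus sequence. Of the rest, 1177 lay within 5 kb downstream of a gene, 503 within 5 kb upstream and 540 farther away. The downstream class was nearly all single-exon (44 spliced) and reached at most 40.5 FPKM. In 558 of its 1177 loci (47.4%), an assembled transcript that ran into the annotated gene also had an exon in the locus in at least 1 library. Such a joined transcript overlaps the annotation, so the rule leaves it out, and the locus can be listed at 0 in that library although the sequence was transcribed. The share of loci with a joined transcript was 28.4% in the upstream class and 5.0% in the far class.

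Zeros were common. Of 22608 values (2512 loci in 9 libraries), 10484 were 0 (46.4%), and a joined transcript covered the locus in 1786 of these (17.04%). Only 345 loci were above 0 in all 9 libraries. The number of loci that passed in a library ran from 1053 (control 1) to 1567 (competent 2). In the control libraries it was 1053, 1422 and 1259. The competent libraries had 1420, 1567 and 1260, and the arrested libraries had 1237, 1206 and 1384, so the groups overlapped. Summed read coverage ran from 1303 to 2471 Mb per library, lowest in control 1, and loci took 0.716% to 0.979% of it. At 1 FPKM a transcript had a mean coverage of 1.09 to 1.98 reads per base, so a locus near the limit was seen by few reads.

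The tissue and the libraries were checked on annotated genes. All 12 uterine marker genes were above 0 in every library, among them the progesterone receptor Pgr at 26.5 to 48.5 FPKM. Their sum was 4220 to 4932 FPKM in control, 5096 to 6070 FPKM in competent and 3302 to 4029 FPKM in arrested libraries, so the sums did not overlap. The secretory protein gene Ltf was the largest term in each library. It had 1761 to 2528 FPKM in control, 2575 to 3431 FPKM in competent and 1137 to 1885 FPKM in arrested libraries. No gene of the list kept all 3 groups apart by itself. Vim had its highest value, 806 FPKM, in arrested 2. The sum mostly weighs Ltf and is no measure of the amount of uterine tissue. The 3 red blood cell genes summed to 557 to 894 FPKM in control, 430 to 2305 FPKM in competent and 1194 to 2788 FPKM in arrested libraries, all arrested libraries above all controls. The 4 leukocyte genes summed to 48.7 to 71.9 FPKM in control, 51.6 to 66.9 FPKM in competent and 27.5 to 49.1 FPKM in arrested libraries. Genes of this list disagreed between arrested and competent libraries. Ly6g was lower in arrested (0 to 11.6 FPKM) than in competent libraries (13.1 to 34.4 FPKM). Ptprc was higher in arrested (4.07 to 7.05 FPKM) than in competent libraries (2.89 to 3.64 FPKM). Cd68 and Cd3e overlapped between these groups. Of the skeletal muscle genes Ckm was at 0.231 to 0.852 FPKM, Myh4 was at 0 throughout and Acta1 was not listed. Of the ovarian genes Cyp19a1 was at 0 throughout and Amh was at most 0.209 FPKM, and the 2 liver genes summed to at most 0.358 FPKM. Markers of other tissue also stood out in single libraries of the arrested group. The 5 adipocyte genes summed to 1334 FPKM in arrested 2, against 1.38 to 195 FPKM in the other 8 libraries, with all 5 highest there. The oviduct gene Ovgp1 was 40.5 FPKM in arrested 3 and 0 in the other 8 libraries. The part of these in the results below was not tested. Counts of called loci are given without each of these libraries.

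Among loci that a later annotation named, 162 held or adjoined a RefSeq start of a gene missing from the files, 140 of them of long non-coding RNA only and 19 of protein-coding genes only. In addition 18 loci, some of them also among the 162, overlapped exons of GENCODE vM1 transcripts that the files did not list. Spliced loci made up 113 of the 176. Several carried the best known nuclear non-coding RNAs, and they were among the strongest loci of all.

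Snhg8, at chr3:123210467-123211384 on the minus strand, had the second highest mean of all loci, 282 FPKM. Its level was 283, 290 and 338 FPKM in control, 215, 305 and 188 FPKM in competent and 346, 336 and 238 FPKM in arrested libraries. The groups overlapped.

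Neat1, the RNA on which paraspeckles are built, was assembled over chr19:5842242-5845832. It stood at 140.4, 45.7 and 267 FPKM in control, 115, 170.1 and 145 FPKM in competent and 129, 186 and 298 FPKM in arrested libraries. A joined transcript was present in 4 libraries, and counting it raised control 2 from 45.7 to 122 FPKM. Without it, the SD within the control group was 111 FPKM (n = 3).

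Malat1, at chr19:5795722-5802672, had 115, 129.5 and 123 FPKM in control, 125, 154 and 116 FPKM in competent and 58.0, 132 and 211 FPKM in arrested libraries. Both its lowest and its highest value were in the arrested group.

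Protein-coding genes were also recovered. Rpl41, which encodes a very small protein of the large ribosomal subunit, was assembled at chr10:127984967-127986369 with 131 to 196 FPKM. Its locus was 99.2% identical to the annotated Gm10076 over 50.1% of its length, and Gm10076 had a mean of 5568 FPKM, so the division of fragments between them is uncertain. Smim22, a small membrane protein gene 156 bases from Rogdi, had 51.8 to 85.2 FPKM in 8 libraries. In control 3 it was listed at 0, and with the joined transcript counted it had 23.9 FPKM there.

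Lower down, Tincr, a non-coding RNA first described in epidermal differentiation, had 17.7, 24.8 and 22.3 FPKM in control, 16.1, 13.1 and 11.5 FPKM in competent and 26.0, 13.8 and 10.9 FPKM in arrested libraries. All 3 control libraries were above all 3 competent libraries, and arrested 1 was above both. Lockd, 3505 bases past the 3′ end of the cell cycle inhibitor gene Cdkn1b, ran from 8.73 to 28.8 FPKM. Chaserr, upstream of the chromatin remodeller gene Chd2, had 8.52, 7.42 and 8.95 FPKM in control, 5.69, 6.99 and 5.40 FPKM in competent and 7.40, 15.7 and 10.8 FPKM in arrested libraries. All 3 competent libraries were below those of both other groups. Brd3os stayed between 2.06 and 3.76 FPKM, and Mannr, between Mecom and Egfem1, between 1.36 and 5.28 FPKM. Neither these named RNAs nor any of the 10 loci of highest mean passed the test described below.

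**Figure D3:**
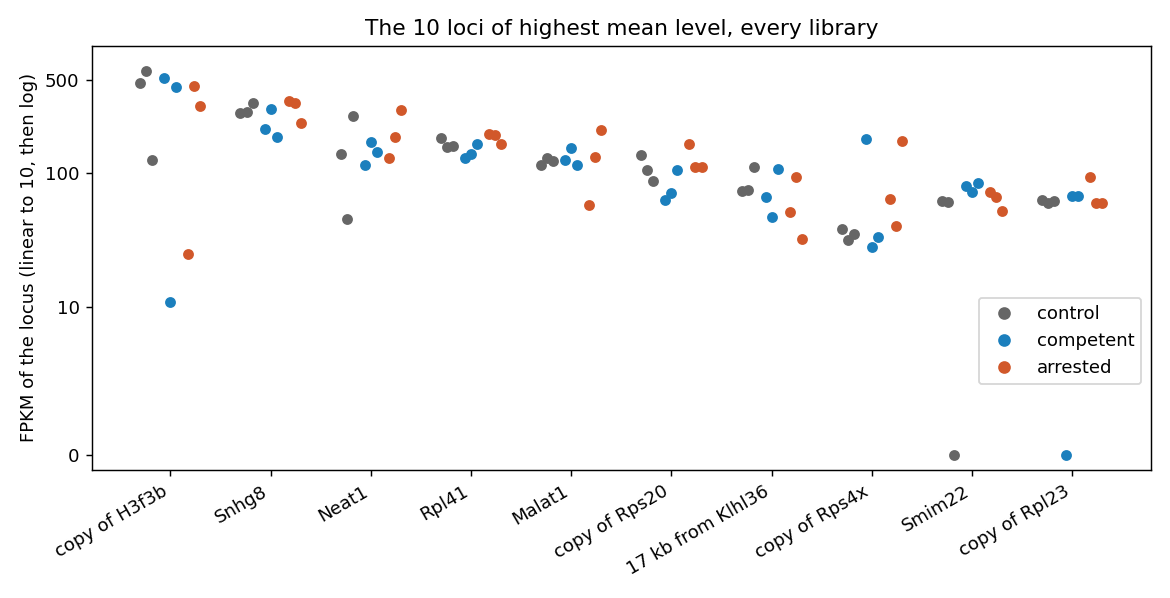
FPKM of the 10 loci of highest mean level (y axis, linear up to 10 and log above) in each of 9 libraries, 1 dot per library, control in grey, competent in blue and arrested in orange. The competent libraries stand above the control and arrested ones at Smim22 and below the arrested ones at the Rps20 copy, and the arrested libraries stand above the controls at the Rps4x copy, while other pairs of groups overlap. The 2 zeros are Smim22 in control 3 and the Rpl23 copy in competent 1.

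Copies of annotated transcripts filled 4 of the 10 highest places when Rpl41 is left aside. In all, 124 loci matched an annotated transcript at this threshold, 8 of which a later annotation also named. Of the 124, 109 were single-exon, 22 were at least 98% identical to the match, and 8 were copies of ribosomal protein genes. They made up 19 of the 62 loci with a mean of at least 10 FPKM. The matched transcript was of a protein-coding gene for 88 loci, of a pseudogene for 2 and of another type for 34. The median identity was 94.4%. The lincRNA Gm16854 was the match of loci on several chromosomes. Whether a match reflects a copied gene or a shared repeated sequence was not tested.
The copy of H3f3b, a histone H3.3 gene, at chr1:180229447-180229885 had the highest mean of all, with 477, 579 and 126 FPKM in control, 515, 10.8 and 443 FPKM in competent and 25.0, 451 and 319 FPKM in arrested libraries. It passed the length limit in 2 libraries only, and 1 library in each group was well below the other 2.
The Rps20 copy shown above had 87.6 to 138 FPKM in control, 63.0 to 106 FPKM in competent and 111 to 167 FPKM in arrested libraries. The annotated Rps20 gene had a mean of 1213 FPKM.
The Rps4x copy at chr13:3298100-3298937 was at 27.9 to 64.2 FPKM in 7 libraries, and at 179 FPKM in competent 1 and 174 FPKM in arrested 3. The Rpl23 copy at chr6:66825256-66825768, 99.8% identical to the gene, had 59.6 to 94.3 FPKM in 8 libraries and was listed at 0 in competent 1. How the aligner placed fragments that match a gene and its copy is not given in the sources used here, so the FPKM of all 124 is uncertain.
The only other locus among the 10 highest, 402 exonic bases at chr8:122418101-122418504, lay 17212 bases past the 3′ end of Klhl36. It had 73.3, 75.05 and 112 FPKM in control, 66.1, 47.2 and 108 FPKM in competent and 51.5, 93.7 and 32.2 FPKM in arrested libraries.

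The largest structures had modest levels. The locus upstream of Muc16 had 17 exons within chr9:18323616-18364992 on the minus strand, the strand of the junctions shown above. It was listed at 0 in all 3 control libraries, at 1.08, 0.693 and 1.62 FPKM in competent and at 0, 1.06 and 1.93 FPKM in arrested libraries. Its mean was too low to be tested. With joined transcripts counted it had 0.101 FPKM in control 2, 1.30 in competent 1, 2.52 in competent 3 and 1.92 in arrested 2. The next had 14 exons upstream of D9Ertd402e (0 to 3.78 FPKM), 12 exons near Dnahc14 (0.263 to 2.26 FPKM) and 11 exons at Gm3519 (0 to 5.12 FPKM). Of the 5 loci with 8 exons, the one with the longest transcript lay upstream of Fbrs (0 to 8.31 FPKM). Every zero at Gm3519 and at the locus upstream of Fbrs was covered by a joined transcript. With these counted they had 3.96 to 6.82 and 2.91 to 8.31 FPKM. The longest transcripts were Gm52620 with 10780 exonic bases and 3.66 to 7.34 FPKM, and Gm20559 with 10116 bases and 0.763 to 9.51 FPKM. The lowest value of Gm20559, in competent 2, became 7.06 FPKM with its joined transcript counted. The next longest were a locus of 8538 bases between Rrm2b and Ncald (1.63 to 5.25 FPKM), one of 8425 bases past 5031425E22Rik (0 to 3.55 FPKM) and one of 8026 bases that began 44 bases past the 3′ end of Ctnnd1 (2.37 to 3.48 FPKM).

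The groups were compared by limma on log2(FPKM + 1), fitted to 14399 annotated genes and the 1045 loci whose average over the libraries reached 1 FPKM. The other 1467 loci were not tested. Because a locus with zeros passes this filter through the group in which it is high, the counts below describe the tested loci and are not support for an effect. Differences are on the log2(FPKM + 1) scale, which understates the change of weak loci, and where a group is at 0 they depend on the added 1.

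Between competent and control libraries 1 locus was higher and 4 were lower at an adjusted p under 0.05. Of all 15444 features 0.0583% were called, 0.013% as higher and 0.0453% as lower. At an unadjusted p under 0.05 there were 64 loci, 6.12% of those tested, beside 5.52% of all features. The median difference was -0.07 over loci and -0.02 over genes. Between arrested and control libraries 0 loci were higher and 2 were lower. Of all features 0.0648% were called, 0.0324% as higher and 0.0324% as lower, and 76 loci (7.27%) were under the unadjusted threshold, beside 5.81% of all features. Between arrested and competent libraries 3 loci were higher and 1 was lower. Of all features 0.162% were called, 0.0777% as higher and 0.0842% as lower. Here 92 loci (8.80%) were under the unadjusted threshold, beside 12% of all features. The comparisons share libraries, so their counts are not independent. With all 9 libraries the fit called 4, 8 and 21 annotated genes in these 3 comparisons. Without arrested 2 it called 6, 4 and 5 loci, beside 14, 29 and 51 genes. Without arrested 3 it called 7, 5 and 7 loci, beside 9, 21 and 38 genes.

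The calls came from 6 loci, and each was at 0 in all 3 libraries of at least 1 group. With the 335 tested loci above 0 in all 9 libraries, limma called 0 loci in each comparison, with 20, 22 and 34 at an unadjusted p under 0.05 for competent against control, arrested against control and arrested against competent. The same holds for the fit with the replicate number as a block, which called 0 loci in each, with 70, 81 and 101 at that unadjusted threshold. The fit on features above 0 in all 9 libraries called 1, 1 and 30 annotated genes, and the block fit called 1, 6 and 7. Counting all assembled transcripts with an exon in the locus, joined ones included, gave 0, 0 and 3 called loci among 1217 tested. Of these 3, 2 were higher and 1 was lower in arrested than in competent libraries. The lower one was not among the 6 loci, so these 3 calls do not show that the calls of the 6 held.

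In 3 of the 6 loci the zeros coincided with joined transcripts in every library at 0. The locus past the 3′ end of Pcdh7, a protocadherin gene, at chr5:58521126-58524465, had 5.92, 5.90 and 5.35 FPKM in control and 0 in the other 6 libraries, each of which had a joined transcript. With joined transcripts counted it had 6.26, 5.90 and 5.56 FPKM in control, 3.53, 4.35 and 5.17 FPKM in competent and 3.15, 7.20 and 4.23 FPKM in arrested libraries, so that arrested and control libraries overlapped while all 3 competent libraries were below the controls. The limma difference was -2.75 ± 0.24 (SE; adjusted p = 0.0095 against control in competent and 0.0048 in arrested libraries). The Pcdh7 gene itself did not pass the test in either comparison (adjusted p = 0.923 and 0.942).
Past the 3′ end of Mbnl3, a regulator of splicing, chrX:48466733-48470241 had 2.99 to 4.73 FPKM in control, 2.57 to 3.69 FPKM in arrested and 0 in the competent libraries. With joined transcripts counted, the competent libraries had 2.98, 3.64 and 3.54 FPKM and the groups overlapped. The limma differences were -2.28 ± 0.23 for competent minus control (adjusted p = 0.0216) and 1.98 ± 0.23 for arrested minus competent (adjusted p = 0.0275), and the latter became -0.05 with joined transcripts counted.
Past the 3′ end of Lmbrd2, chr15:9128511-9132215 had 2.66 to 3.74 FPKM in control, 3.21 to 5.80 FPKM in arrested and 0 in the competent libraries, which had 3.09, 3.37 and 3.62 FPKM with joined transcripts counted. Its differences were -2.11 ± 0.25 for competent minus control (adjusted p = 0.0465) and 2.34 ± 0.25 for arrested minus competent (adjusted p = 0.0165).

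In the single-exon locus near Gm4980, chr7:106774951-106775528, joined transcripts covered 2 of the 6 libraries at 0. It had 3.96, 8.18 and 8.06 FPKM in competent libraries, 2 of which passed the limits, and 0 in the other 6. The limma difference was 2.90 ± 0.31 against control (adjusted p = 0.0237) and -2.90 ± 0.31 for arrested minus competent (adjusted p = 0.0165). With joined transcripts counted it reached 0.12 FPKM in control 2 and 1.70 FPKM in arrested 3, below the 4.18 FPKM of the lowest competent library, but neither call held (adjusted p = 0.252 against control and 0.11 for arrested minus competent). Gm4980 itself, 266 bases away, had 0 FPKM in all 3 competent libraries and at most 4.98 FPKM elsewhere.
The locus upstream of Bmf, whose first bases are shown above, had 7.08, 7.31 and 11.7 FPKM in control and 0 in the other 6 libraries. Its difference was -3.25 ± 0.26 both in competent (adjusted p = 0.0095) and in arrested libraries (adjusted p = 0.0034). A joined transcript covered it in arrested 2, where it then had 7.46 FPKM, inside the range of the controls, and neither call held with it counted (adjusted p = 0.619 in competent and 0.768 in arrested libraries).
The locus between Plekhg6 and Cd9, whose first bases include common repeated windows, had 3.91, 2.53 and 3.88 FPKM in arrested libraries. It was listed at 0 in the other 6 with no joined transcript in any library. Its difference was 2.13 ± 0.28 against competent (adjusted p = 0.0453) and the same against control, where the adjusted p was 0.0794. It passed the limits in 2 of the 3 arrested libraries.

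**Figure D4:**
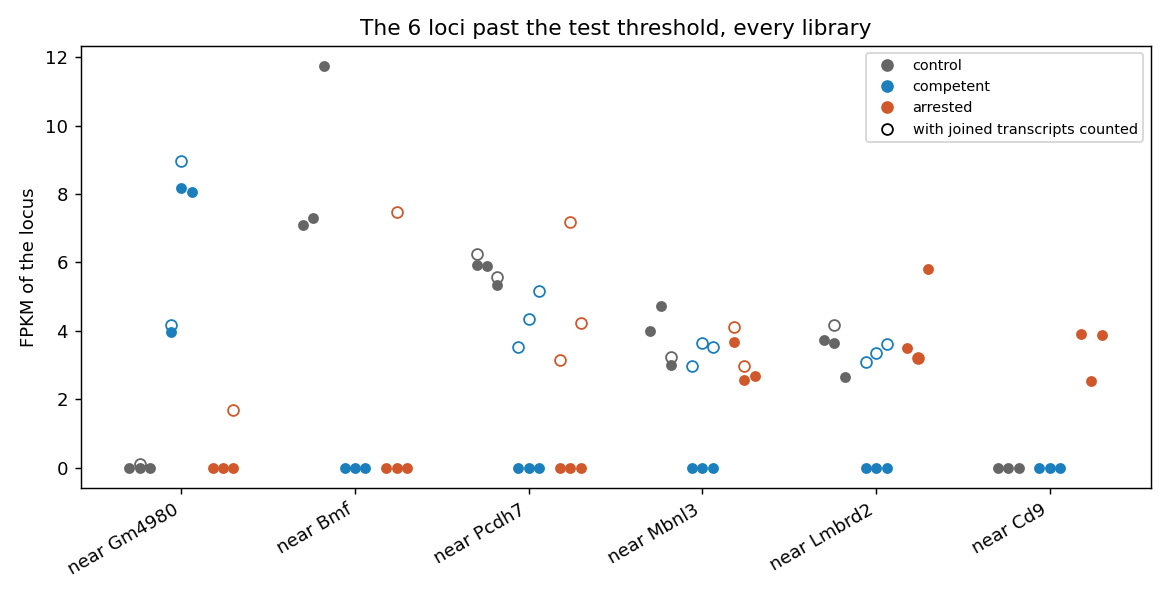
FPKM (y axis) of the 6 loci past the threshold in at least 1 comparison, 1 filled dot per library, control in grey, competent in blue and arrested in orange. Open circles give the value with joined transcripts counted where it differs, and at Pcdh7, Mbnl3 and Lmbrd2 they lift every filled dot at 0 to 2.98 FPKM or more.

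Several other loci fell short of the threshold. A locus 2721 bases past the 3′ end of Chordc1, at chr9:18121166-18121840, was at 0 in all 3 control libraries and at 2.78, 2.01 and 2.16 FPKM in competent and 2.79, 1.94 and 3.09 FPKM in arrested libraries. Its difference from control was 1.72 ± 0.24 (adjusted p = 0.122) and 1.84 ± 0.24 (adjusted p = 0.0775). A locus 109 bases upstream of Dync1h1, the dynein heavy chain gene, had 3.26, 2.47 and 3.15 FPKM in control, 1.55, 2.30 and 3.46 FPKM in competent and 0 in arrested libraries (arrested minus control -1.98 ± 0.27, adjusted p = 0.0846, and arrested minus competent -1.74 ± 0.27, adjusted p = 0.069). The copy of Tmed2 at chr9:33537184-33537703 had 3.78, 4.7 and 3.88 FPKM in competent libraries, 0 in control libraries and 3.31 FPKM in arrested 3, with 0 in the other 2 arrested libraries (competent minus control 2.35 ± 0.54, adjusted p = 0.615). 9430083A17Rik, 181 bases upstream of Spin1, had 3.53, 4.0 and 2.21 FPKM in arrested libraries, 0 in the controls and 1.44 FPKM in competent 2 (arrested minus control 2.06 ± 0.41, adjusted p = 0.442). Joined transcripts covered it in 2 of the libraries at 0, and with them counted it had 1.07 FPKM in control 3 and 0.586 FPKM in competent 3. A copy of Gm16854 at chr14:32929363-32933055 had 0.526 to 1.27 FPKM in control, 1.99, 2.16 and 6.37 FPKM in competent and 0 in arrested libraries (arrested minus competent -2.04 ± 0.39, adjusted p = 0.138).

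Among tested loci above 0 in all 9 libraries, Hand2os1 had the smallest p between arrested and competent libraries, and it was picked out after its values were seen. Hand2, its neighbour, encodes a transcription factor that acts in the uterine stroma downstream of progesterone. The locus, chr8:59783061-59799681, was assembled on the minus strand with up to 8 exons. It had 9.13, 9.44 and 12.2 FPKM in control, 6.52, 6.80 and 6.55 FPKM in competent and 13.9, 12.3 and 13.5 FPKM in arrested libraries, with no joined transcript in any of them. The competent libraries were all below the controls, and the arrested libraries were all above them. The means were 10.2 ± 1.66, 6.62 ± 0.151 and 13.2 ± 0.851 FPKM (SD, n = 3). Arrested minus competent was 0.90 ± 0.14 on the log2(FPKM + 1) scale with an adjusted p of 0.069 by limma, competent minus control was -0.55 ± 0.14 (adjusted p = 0.697) and arrested minus control was 0.35 ± 0.14 (adjusted p = 0.813), so none passed the threshold. Over the alternatives the adjusted p of arrested minus competent ran from 0.044, without control 3, to 0.344. Hand2 had 11.6, 10.7 and 18.9 FPKM in control, 9.30, 10.0 and 10.5 FPKM in competent and 8.11, 18.3 and 7.10 FPKM in arrested libraries. Its groups overlapped, and arrested minus competent was 0.04 ± 0.34 (adjusted p = 0.985). Whether the difference at Hand2os1 differed from that at Hand2 was not tested.

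**Figure D5:**
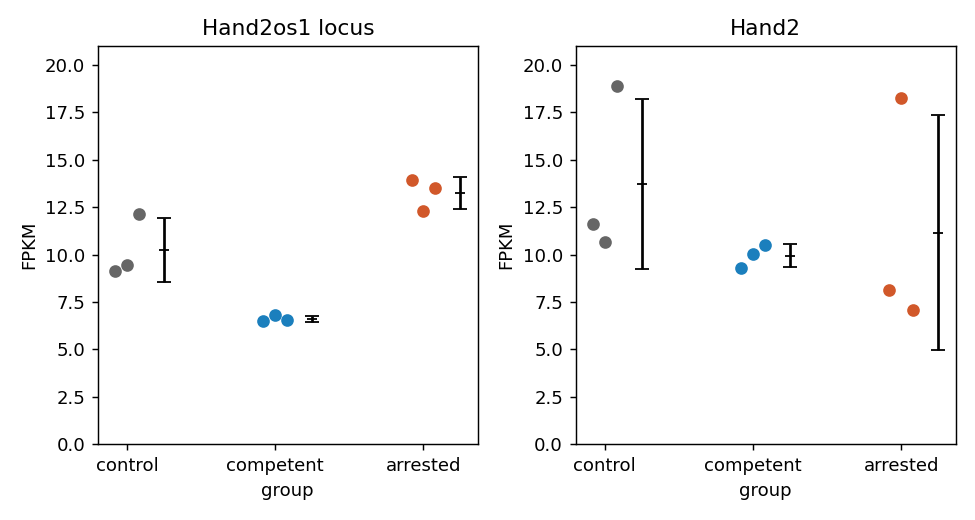
FPKM (y axes, same scale) of the Hand2os1 locus (left) and of Hand2 (right) by group, 1 dot per library, with the mean and SD of 3 libraries as a black bar beside them. The 3 groups do not overlap at Hand2os1 and overlap at Hand2.

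Few loci were listed in 1 group alone. In all 3 libraries of the group and in none of the other 6 there were 6 loci for control, 10 for competent and 4 for arrested. The same pattern was found in 0.0562%, 0.0923% and 0.0401% of the 24922 annotated genes and loci, and in 8, 13 and 6 of 22410 annotated genes. With joined transcripts counted in the other 6 libraries, 1, 8 and 4 of these loci were still at 0 there. The strongest were the loci near Bmf, Gm4980, Pcdh7 and Cd9 described above and a locus 6607 bases past the 3′ end of the histone gene Hist1h4m, at chr13:21910624-21911363. That locus had 2.66, 3.08 and 3.23 FPKM in competent libraries and 0 in the other 6, with no joined transcript, and its mean was too low to be tested.

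The spread between libraries of a group was wider for loci than for genes in each range of level compared. Between 1 and 2 FPKM the median within-group SD of log2(FPKM + 1) was 0.70 over 629 loci and 0.40 over 1416 genes. Between 5 and 10 FPKM it was 1.00 over 61 loci and 0.31 over 2660 genes. At 10 FPKM or more it was 0.86 over 62 loci and 0.25 over 7911 genes. This last range has no upper limit and includes genes far above any locus, so levels in it are not matched. Values of loci listed at 0, some of them covered by a joined transcript, enter these SDs. These medians describe the features that passed the filter.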

How the data were processed

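Uterine RNA was sequenced from 9 libraries by Illumina sequencing after preparation with the TruSeq RNA kit that the labels name, which does not mark strand. Per the submitters' processing notes, Bowtie 0.12.2 and Cufflinks were used on mm9; the sources used here do not give the Cufflinks version or settings. The authors deposited, per library, FPKM of each annotated and assembled transcript and of its exons, with a coverage signal per base (reads per base), which the authors' files list beside the FPKM. No read counts were used.

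Loci were built per library against that file's own annotated transcripts. The members and lists were chosen with earlier results of these data known. The value of a locus was planned as the sum of FPKM over its transcripts. It was replaced, after the files were seen and before the groups were tested, by the length-weighted density, since the sum rises with fragmentation. Gene FPKM is the sum over transcripts. limma 3.58.1 (R 4.3.3) was fitted to log2(FPKM + 1) of all 9 libraries with a mean trend, for features with a mean of at least 1 FPKM, with Benjamini-Hochberg adjustment over all 15444 features, after tests on simulated data.

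Nearest genes and positions come from the files and GENCODE vM1 (97.4% of the files' transcripts had the same position). RefSeq starts were located by matching 300-base promoter sequences of GRCm38.p6 to NCBIM37 with at most 3 mismatches. Copies were found with blastn 2.17.0. Repeat shares are not given, since the genome used was not masked. Named loci were the 10 of highest mean, up to 5 per direction called in each comparison (or, where fewer than 3 passed, those of smallest p up to 3), the 5 with most exons and the 5 longest, up to 5 listed in 1 group alone, and those at the limits of the rule. Loci that a later annotation names by a gene symbol were added after their values were seen. Alternatives are in the closing section.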

Additional observations from a re-analysis of the deposited data

How the results depend on the processing

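In the order competent against control, arrested against control and arrested against competent, 5, 2 and 4 of 1045 loci were called. The same fit called 4, 8 and 21 of 14399 annotated genes. Without a filter on the mean the counts were 19, 10 and 14 of 2512 loci, beside 8, 11 and 28 of 22410 genes. With only the 2 groups compared in the fit they were 13, 7 and 16 loci, beside 18, 11 and 38 genes. A minimum mean of 5 FPKM gave 0 loci in each (12, 10 and 13 at an unadjusted p under 0.05), as did features above 0 in all 9 libraries. Genes called were 3, 7 and 18 with that minimum and 1, 1 and 30 among features above 0 throughout. Loci at least 5000 bases from any annotated transcript gave 0, 0 and 1, and so did, as a setting added after seeing the data, loci with no joined transcript. Genes called were 4, 8 and 17 in either setting. Also added then, the sum over transcripts gave 3 in the first comparison, and counting joined transcripts gave 0, 0 and 3. With the sum, the other 2 comparisons had 2 and 6 calls of loci. The fit with the sum called 4, 8 and 20 genes, and that with joined transcripts called 4, 8 and 19. Leaving out 1 library at a time gave 2 to 8, 2 to 5 and 0 to 9 calls of loci, beside 6 to 20, 9 to 29 and 13 to 51 genes. For loci, arrested minus competent fell to 0 without arrested 1 or competent 3, to 1 without competent 1 or 2 and to 2 without control 1. It rose to 9 without control 3 and 7 without arrested 3. Competent minus control fell to 2 without control 1 or competent 2, to 3 without control 3 or competent 3, and rose to 8 without control 2. Arrested minus control rose to 4 without arrested 2 and to 5 without control 2, control 3 or arrested 3. With the replicate number as a block, 0 loci were called in each comparison, beside 1, 6 and 7 genes. The deviations of same-numbered libraries correlated at r = -0.03 to 0.10 across features, beside -0.07 to 0.08 for other pairs. Of the 9 libraries, 2 correlated best with their own number in both other groups. What same-numbered libraries shared beyond a number cannot be decided from such weak correlations. The locus past Mbnl3 reversed to -0.0541 for arrested minus competent when joined transcripts were counted, by construction of that value. For the differences of the loci named by the test and of Hand2os1, 305 recomputed values kept their direction and side of the threshold, 63 lost the call, 14 gained it and 1 reversed. The number of loci was 2035 to 2934 over the other limits of FPKM, length, strand and merging, 1826 in 3 or more libraries and 320 in all 9.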
